A study of Mus musculus with 20 samples.

Results

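The genes that encode the core parts of the inflammasome and of the necroptosis machinery were followed in mouse liver, and they are Nlrp3, Aim2, Pycard, Casp1, Casp4, Gsdmd, Casp8, Ripk1, Ripk3 and Mlkl. They were chosen by name, with earlier results of these data known, and all 10 were found among the 38924 genes of the table. The table holds RNA-seq values from 20 livers of male C57/BL6 mice, 5 per group, which were bought at 5 weeks of age and fed for 12 weeks. The groups were wild type mice on control diet (NDWT), TSP-1 knockout mice on control diet (NDKO), wild type mice on CDAHFD (HFWT) and TSP-1 knockout mice on CDAHFD (HFKO). CDAHFD is a high fat diet with defined amino acids and no choline, which is used to bring about steatohepatitis in mice. The knockout is a germline line, so that the gene is targeted in every cell type of the liver and not in hepatocytes alone. The design sets the questions of how the diet and how the genotype relate to the RNA of these genes.

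The inflammasome is a protein platform of innate immunity. A sensor (NLRP3 for many forms of cell stress, AIM2 for DNA in the cytosol) recruits the adaptor ASC, encoded by Pycard, which in turn gathers and activates caspase-1. Caspase-1 matures interleukin-1β and interleukin-18 and cleaves gasdermin D, whose fragment forms pores in the plasma membrane and ends the cell by pyroptosis. Caspase-11, encoded by Casp4 in mice, cleaves gasdermin D after it has bound bacterial lipopolysaccharide. Necroptosis is another lytic form of death: downstream of death receptors the kinase RIPK1 engages RIPK3, RIPK3 phosphorylates MLKL, and MLKL breaks the plasma membrane. Caspase-8 stands between these programmes, since it starts apoptosis and cleaves RIPK1 and RIPK3. In liver, Kupffer cells and infiltrating leukocytes are the best known sites of inflammasome expression. All of these proteins are controlled by assembly and cleavage, which RNA levels do not show.

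The members lie on 8 chromosomes of GRCm38, the build of the coordinates in the table. Nlrp3 (ENSMUSG00000032691.8) is on chromosome 11 (59541568 to 59566956, plus strand) and Aim2 (ENSMUSG00000037860.9) on chromosome 1 (173350879 to 173466040, plus). Pycard (ENSMUSG00000030793.3) is on chromosome 7 (127992103 to 127993867, minus) and Gsdmd (ENSMUSG00000022575.4) on chromosome 15 (75862339 to 75867404, plus). Casp1 (ENSMUSG00000025888.5, 5298517 to 5307265) and Casp4 (ENSMUSG00000033538.7, 5308828 to 5336783) are neighbours on the plus strand of chromosome 9. Casp8 (ENSMUSG00000026029.8) is on chromosome 1 (58795374 to 58847503, plus), Ripk1 (ENSMUSG00000021408.8) on chromosome 13 (34002363 to 34035170, plus), Ripk3 (ENSMUSG00000022221.7) on chromosome 14 (55784996 to 55788857, minus) and Mlkl (ENSMUSG00000012519.8) on chromosome 8 (111311797 to 111338177, minus). Casp1, Nlrp3, Gsdmd, Ripk3 and Mlkl share no stretch of 31 bases with the transcripts of another gene. Casp8 shares 243 such stretches with other genes, most of them with Gm20257, and 6.12% of the Ripk1 exon bases lie in Gm17084 on the same strand, so that fragments of these genes could be split or lost in counting. In Pycard, 12.8% of the exon bases lie opposite Gm45205. The library kit keeps strand, but whether the counting used it is not given in the sources used here.

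RefSeq promoter windows (GRCm38.p6, 250 bases before to 50 after a start) were held for 9 members, all but Gsdmd, and are shown because inflammasome genes are often studied as NF-κB and interferon targets. On both strands, the short NF-κB motif (GGG, any 5 bases, CC) was found in windows of 4 of the 9, Casp1, Casp4, Nlrp3 and Ripk1. The same letters occur for 53.5% of the 27025 genes with a window, so the motif does not set these genes apart. The interferon response motif (GAAA, any 2 bases, GAAA; 3.99% of genes) and the STAT motif (TTC, any 3 bases, GAA; 9.55% of genes) were each found in 1 of the 9, Ripk1, where they overlap at the start. A match of letters is a description and not a binding site. The motif letters are in capitals, with overlapping matches joined, in the following stretches 5′ to 3′ on the plus strand.
Casp4, NF-κB, chr9:5308736-5308787: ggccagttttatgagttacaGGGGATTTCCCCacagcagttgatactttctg
Casp1, NF-κB, chr9:5298339-5298388: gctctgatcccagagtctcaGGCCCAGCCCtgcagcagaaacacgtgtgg
Nlrp3, NF-κB, chr11:59541363-59541412: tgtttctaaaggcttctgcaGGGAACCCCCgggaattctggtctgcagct
Ripk1, STAT and interferon response, chr13:34002843-34002883: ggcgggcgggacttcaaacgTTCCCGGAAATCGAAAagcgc

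The libraries held 15641545 to 23276322 fragments assigned to genes. Values are FPKM, fragments scaled to the length of the gene and the size of the library, and n is 5 mice per group throughout. The targeted gene, Thbs1, went against its labels on the control diet, at 0.197 ± 0.103 FPKM (mean ± SD) in NDWT and 1.30 ± 0.390 in the libraries labelled NDKO, and on CDAHFD it was not called (4.62 ± 1.22 in HFWT and 3.44 ± 0.547 in HFKO). Genotypes are therefore given as labelled, and each direction between them rests on the labels. The tissue carried the markers of liver: 5 hepatocyte genes led by Alb summed to 27503 to 46849 FPKM per library. Within the groups some libraries stood apart. HFKO replicate 5 had the highest FPKM of its group for 8 of the 10 genes (all but Mlkl and Casp8), and it also had the highest macrophage, T cell, B cell, endothelium and stellate cell marker sums of its group, with 582 FPKM of macrophage markers against 258 to 400.2 in the other 4 HFKO libraries. What part this has in the values was not tested, and the counts that change without it are given below. HFWT replicate 5 differed in another way. Genes under 200 bases held 1.16% of its fragments, against 0.0505% to 0.271% in every other library. It also had the lowest FPKM of its group for 5 of the 10 genes. Fits without it were made, as without each other library, and the Casp12 call lost without it is given below. What part its share of short genes has in the values was not tested.

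**Figure D1:**
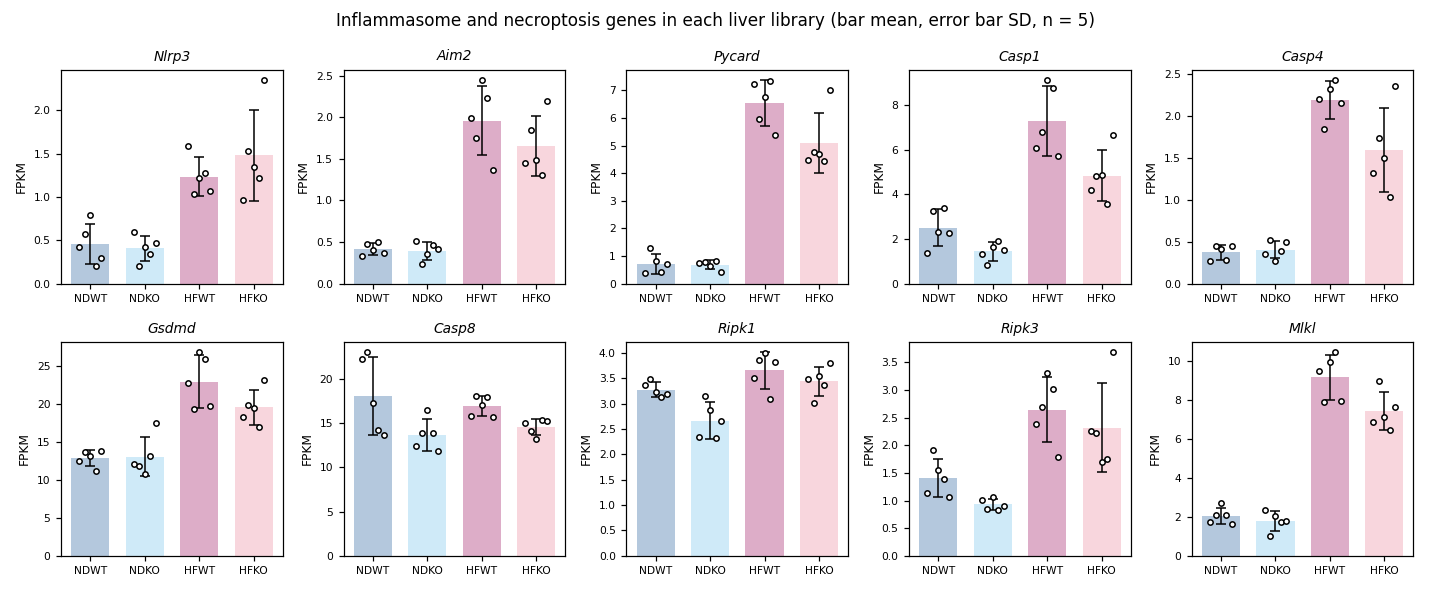
FPKM of the 10 genes (one panel each, linear axis from 0) in the 4 groups. Bars are means and error bars SD over 5 mice, and each open point is a library. The CDAHFD points of Nlrp3, Aim2, Pycard, Casp1, Casp4 and Mlkl lie above all control diet points of the same genotype, whereas those of Casp8 and Ripk1 overlap with them.

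On CDAHFD the inflammasome genes, from the sensors to gasdermin D, and the downstream necroptosis genes Ripk3 and Mlkl were called higher in FPKM as deposited, and Casp8 and Ripk1 were not called. The calls of Gsdmd and Ripk3 in both genotypes, and of Nlrp3 in WT livers, were lost under at least 1 other scaling, as given below. In WT livers 8 of the 10 members were called higher on CDAHFD and 0 lower, where 44.1% of the 14524 genes tested were called higher and 4.62% lower. In livers labelled TSP-1 null 8 of the 10 were again called higher and 0 lower, against 41.9% and 4.00% of all genes. Without HFKO replicate 5 the second count was 7. The libraries of the diets did not overlap, with CDAHFD higher, for 7 members in each genotype, as for 50.5% of all genes in WT livers and 52.7% in TSP-1 null livers. A gene was called at an FDR under 0.05 (limma, two-sided, Benjamini-Hochberg over all genes tested) and an absolute log2FC above 0.58. All 10 members passed the filter of FPKM above 0.5 in at least 5 libraries. Aim2 and Casp4 each exceeded 0.5 FPKM in 1 of the 10 control diet libraries and Nlrp3 in 3, so that these passed through the CDAHFD livers, where they are high. Pycard exceeded it in 7 control diet libraries. The median log2FC of the members was 1.45 in WT livers and 1.67 in TSP-1 null livers, and that of all genes tested was 0.53 and 0.50.

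The shift of all genes bears on how large each difference is. FPKM as deposited are shares of a library, and scaling by median of ratios brought the median of all genes from 0.53 to -0.01 in WT livers and from 0.50 to -0.01 in TSP-1 null livers. Of all called genes, 90.5% were higher in WT as deposited, 59.5% under median of ratios and 49.5% under quantile normalization, and in TSP-1 null livers the shares were 91.3%, 62.0% and 52.6%. Each member is therefore also given relative to the median of all genes. Under median of ratios 6 members were called higher and 1 lower in WT (Casp8), and 7 higher in TSP-1 null livers. Quantile normalization left 5 higher and 1 lower in WT (Ripk1), and 6 higher in TSP-1 null livers. Pycard, Casp4, Mlkl, Aim2 and Casp1 were called higher in both genotypes under all 3 scalings.

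**Figure D2:**
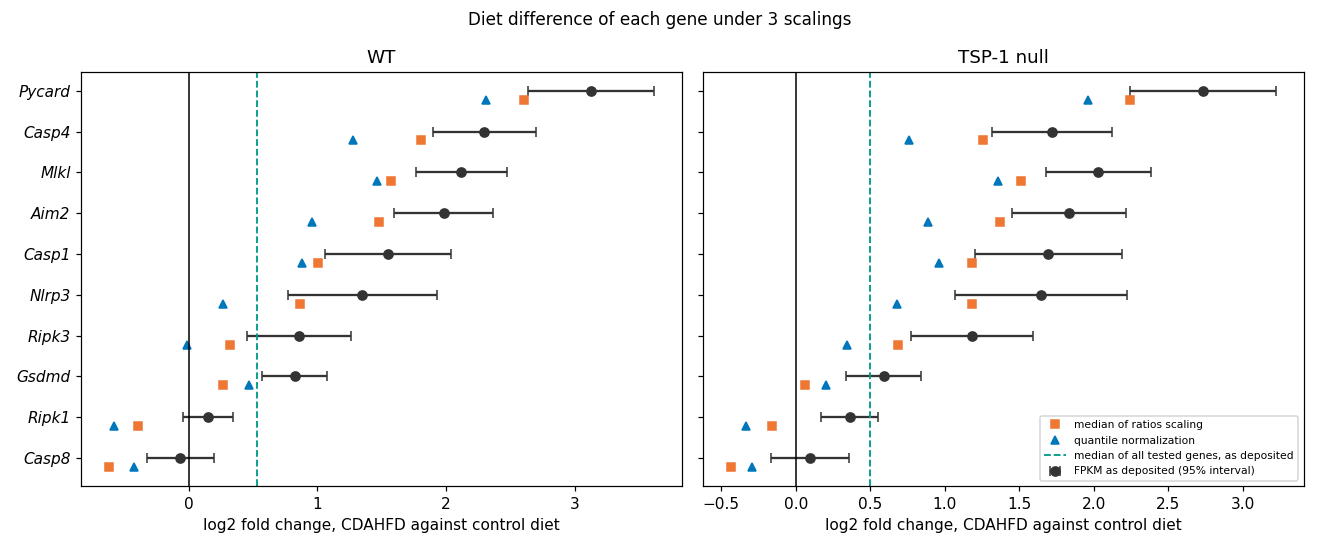
log2 fold change of each gene between CDAHFD and control diet, in WT (left) and TSP-1 null livers (right). Circles with 95% intervals are the deposited FPKM, squares median of ratios scaling and triangles quantile normalization, and the dashed line is the median of all tested genes as deposited (0.53 and 0.50). Pycard lies furthest to the right under each scaling, Gsdmd and Ripk3 move towards 0 (Ripk3 in WT to -0.02 under quantile normalization), and Ripk1 and Casp8 lie below 0 in both panels under both scalings.

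Pycard, the adaptor ASC, changed most. Its FPKM was 0.367, 1.28, 0.800, 0.415 and 0.714 in NDWT and 7.22, 5.97, 6.78, 7.35 and 5.39 in HFWT. In the livers labelled TSP-1 null it was 0.759, 0.783, 0.647, 0.802 and 0.422 on control diet and 4.48, 4.78, 4.71, 4.43 and 7.02 on CDAHFD. Every CDAHFD library lay above every control library of its genotype, and the values came from 10 to 30 fragments per library on control diet and 105 to 206 on CDAHFD. The log2FC was 3.13 in WT (SE 0.23, limma FDR 6.42e-10), an 8.76-fold difference on the log2(FPKM + 0.1) scale, and 2.73 in TSP-1 null livers (FDR 5.14e-09). Relative to all genes the log2FC was 2.60 and 2.24. These are bulk livers, in which more cells of a type and more RNA per cell cannot be told apart.

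The sensors Nlrp3 and Aim2 were low genes in liver on control diet and higher on CDAHFD. Nlrp3 was at 0.424, 0.576, 0.789, 0.201 and 0.297 FPKM in NDWT and at 1.59, 1.03, 1.22, 1.27 and 1.07 in HFWT. In NDKO it was at 0.597, 0.206, 0.422, 0.339 and 0.463, and in HFKO at 0.971, 1.53, 1.34, 1.22 and 2.35. The diets did not overlap in either genotype. Its log2FC was 1.35 in WT (SE 0.28, limma FDR 0.000215) and 1.64 in TSP-1 null livers (FDR 2.82e-05), and only the WT call was lost under quantile normalization (0.26, FDR 0.344). Aim2 was at 0.331, 0.479, 0.401, 0.499 and 0.372 FPKM in NDWT and at 1.99, 1.76, 2.45, 2.23 and 1.37 in HFWT. In livers labelled TSP-1 null it was at 0.512, 0.239, 0.351, 0.465 and 0.410 on control diet and at 1.45, 1.84, 1.49, 1.30 and 2.20 on CDAHFD. No CDAHFD library held fewer than 83 fragments of Aim2 and no control library more than 37. Its log2FC was 1.98 in WT livers and 1.83 in TSP-1 null livers (limma FDR 1.26e-08 and 4.25e-08), and its call held under all 3 scalings.

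Both inflammatory caspases were higher on CDAHFD. Casp1, which matures interleukin-1β, was at 1.35, 3.24, 2.29, 3.39 and 2.24 FPKM in NDWT and at 6.07, 6.81, 9.13, 8.77 and 5.72 in HFWT. Its values were 1.33, 0.823, 1.64, 1.92 and 1.49 FPKM in NDKO and 4.21, 4.83, 4.87, 3.58 and 6.66 in HFKO. The diets were apart in both genotypes, with a log2FC of 1.55 in WT (SE 0.24, limma FDR 7.98e-06) and 1.70 in TSP-1 null livers (FDR 2.89e-06). Casp4, encoding caspase-11, was at 0.266, 0.452, 0.409, 0.283 and 0.446 FPKM in NDWT and at 2.21, 1.84, 2.33, 2.43 and 2.15 in HFWT. In NDKO it was at 0.353, 0.522, 0.274, 0.388 and 0.493, and in HFKO at 1.32, 1.74, 1.50, 1.04 and 2.36. The HFWT libraries of Casp4 lay close together, whereas HFKO spread from 1.04 to 2.36. The log2FC was 2.30 in WT livers and 1.72 in TSP-1 null livers (limma FDR 3.04e-09 and 1.84e-07). Casp1 and Casp4 are neighbours, and their transcripts share no stretch of 31 bases with each other.

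Gsdmd, the pore former, was among the most abundant members on both diets and changed least among those called. It was at 12.5, 13.7, 13.1, 11.2 and 13.8 FPKM in NDWT and at 22.8, 19.3, 26.9, 26.0 and 19.7 in HFWT. In livers labelled TSP-1 null it was at 12.2, 11.9, 10.8, 13.1 and 17.5 on control diet and at 18.3, 19.9, 19.5, 17.0 and 23.1 on CDAHFD. The WT diets did not overlap, whereas NDKO replicate 5 lay above the lowest HFKO library. The log2FC was 0.82 in WT (SE 0.12, limma FDR 5.29e-06) and 0.59 in TSP-1 null livers (FDR 0.000225), the latter just past the fold threshold. Relative to all genes it was 0.29 and 0.09, and under median of ratios (0.26 and 0.06) and quantile normalization (0.47 and 0.21) it was not called in either genotype. Without HFKO replicate 5 it fell short of the fold threshold in TSP-1 null livers, at 0.53, as it did without NDKO replicate 1, 2 or 3 (0.57, 0.56 and 0.53).

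Along the chain of Ripk1, Ripk3 and Mlkl the log2FC was smallest for Ripk1 at its top and largest for Mlkl at its end. Casp8, which stands beside this chain, lay lower still (-0.07 in WT and 0.09 in TSP-1 null livers). Ripk1 was at 3.36, 3.48, 3.23, 3.13 and 3.19 FPKM in NDWT and at 3.52, 3.86, 3.99, 3.10 and 3.83 in HFWT, with overlap and a log2FC of 0.15 (SE 0.09, limma FDR 0.148). In NDKO it was at 2.34, 3.15, 2.87, 2.31 and 2.67, and in HFKO at 3.49, 3.01, 3.54, 3.36 and 3.80, a log2FC of 0.36 that passed the FDR (0.00157) but not the fold threshold. Relative to all genes Ripk1 was at -0.38 and -0.14, so that its direction depends on the scaling in both genotypes. Ripk3 was at 1.14, 1.92, 1.54, 1.40 and 1.07 FPKM in NDWT and at 2.38, 2.70, 3.31, 3.01 and 1.80 in HFWT. In NDKO it was at 1.01, 0.852, 1.06, 0.828 and 0.907, and in HFKO at 2.26, 2.21, 1.70, 1.75 and 3.69. HFWT replicate 5 of Ripk3 lay within the NDWT range, and in TSP-1 null livers the diets were apart. The log2FC was 0.86 in WT (SE 0.20, limma FDR 0.000603) and 1.18 in TSP-1 null livers (FDR 2.28e-05). Under median of ratios the WT call was lost (0.32, FDR 0.138), and under quantile normalization both were (-0.02 and 0.34).

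Mlkl, the executioner of necroptosis, had the largest difference of this arm. It was at 1.74, 2.08, 2.71, 2.10 and 1.61 FPKM in NDWT and at 9.47, 7.90, 9.96, 10.4 and 7.96 in HFWT. In livers labelled TSP-1 null it was at 2.36, 1.03, 2.04, 1.71 and 1.78 on control diet and at 6.86, 8.97, 7.14, 6.44 and 7.63 on CDAHFD. The lowest CDAHFD library was more than 2 times as high as the highest control library. The log2FC was 2.12 in WT (SE 0.17, limma FDR 1.67e-09) and 2.03 in TSP-1 null livers (FDR 3.76e-09), with 1.59 and 1.53 relative to all genes. Casp8, which restrains necroptosis, was not called in either genotype. Its FPKM was 22.3, 23.0, 17.3, 14.2 and 13.6 in NDWT and 15.8, 18.1, 17.0, 18.0 and 15.7 in HFWT. In NDKO it was 12.4, 13.9, 16.5, 13.9 and 11.8, and in HFKO 15.0, 14.2, 13.2, 15.3 and 15.2. The diets overlapped in both genotypes, and the 95% interval of the log2FC was -0.33 to 0.20 in WT livers and -0.17 to 0.36 in TSP-1 null livers. Relative to all genes Casp8 was at -0.60 and -0.40, and under median of ratios it was called lower in WT (-0.62).

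Ratios of 2 genes in the same library are free of the scaling between libraries, and all 45 pairs were tested in 4 comparisons after the values were seen (two-sided exact permutation test, adjusted over 180 tests, smallest possible p 0.00794). Of the 45 pairs, 31 passed between the diets in WT livers and 26 in TSP-1 null livers. The pairs reuse the same genes, so these passes are not independent of each other or of the single gene differences given above. How many pairs of other genes would pass was not tested, so the counts do not set these genes apart. Mlkl to Casp8 had a median of 0.118 in NDWT and 0.581 in HFWT, a 4.73-fold difference (exact p = 0.00794, adjusted 0.0265), and 0.124 and 0.502 in TSP-1 null livers, 4.00-fold with the same p. Ripk3 to Casp8 was 1.96-fold and 2.25-fold higher on CDAHFD (adjusted exact p = 0.0265 in both). Mlkl also outran its kinase: the ratio of Ripk3 to Mlkl fell from a median of 0.664 to 0.288 in WT (adjusted exact p = 0.0265) and from 0.509 to 0.272 in TSP-1 null livers (adjusted 0.0454). The ratio of Ripk1 to Ripk3 was 2.25 in NDWT and 1.43 in HFWT, which did not pass (adjusted exact p = 0.0630), and 2.79 and 1.54 in TSP-1 null livers, which did (adjusted 0.0265). In the inflammasome arm Pycard to Casp1 rose 3.34-fold in WT livers and 2.21-fold in TSP-1 null livers (adjusted exact p = 0.0265 in both). Gsdmd to Casp8 rose 1.86-fold in WT (adjusted exact p = 0.0265), and its 1.41-fold difference in TSP-1 null livers did not pass (adjusted 0.111).

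**Figure D3:**
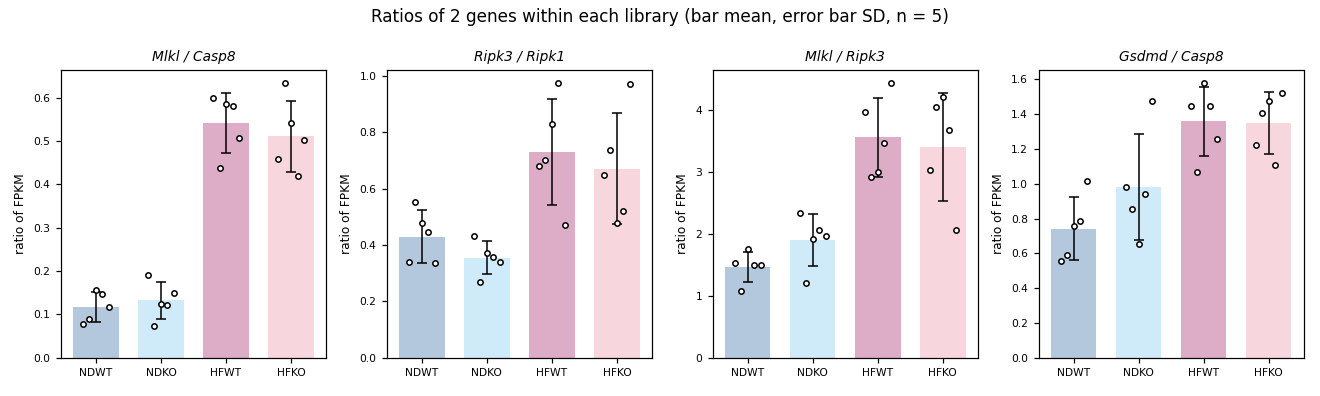
Ratio of the FPKM of 2 genes within each library, for Mlkl to Casp8, Ripk3 to Ripk1, Mlkl to Ripk3 and Gsdmd to Casp8, in the 4 groups (linear axes from 0). Bars are means, error bars SD over 5 mice and points libraries. Mlkl to Casp8 ran from 0.0742 to 0.190 in the 10 control libraries and from 0.421 to 0.633 in the 10 CDAHFD libraries. Ripk3 to Ripk1 overlapped between the diets in WT (0.337 to 0.552 and 0.470 to 0.973) but not in TSP-1 null livers (0.270 to 0.433 and 0.480 to 0.971).

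The order of the levels changed with the diet. FPKM is per length, so that genes can be set side by side. On control diet Casp8 and Gsdmd were the most abundant, with overlapping ranges (18.1 ± 4.40 and 12.9 ± 1.06 FPKM in NDWT, 13.7 ± 1.80 and 13.1 ± 2.59 in NDKO). On CDAHFD Gsdmd stood above Casp8 in all 10 libraries and without overlap (22.9 ± 3.47 and 16.9 ± 1.16 in HFWT, 19.6 ± 2.31 and 14.6 ± 0.879 in HFKO). Mlkl came next on CDAHFD (9.15 ± 1.16 in HFWT and 7.41 ± 0.973 in HFKO), apart from Casp8 above it. On control diet Ripk1 held the third place instead (3.28 ± 0.143 and 2.67 ± 0.358 FPKM), in a range that overlapped with those of Casp1 in NDWT and Mlkl in NDKO. Pycard moved from the seventh place in both control groups, at 0.715 ± 0.366 and 0.683 ± 0.158, to the fifth in HFWT and the fourth in HFKO. Nlrp3, Aim2 and Casp4 took the last 3 places in every group and overlapped with each neighbour among themselves.

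Markers of other cells moved with the diet beside these genes. The macrophage list, led by Cd5l, summed to 183 to 250.2 FPKM in NDWT and 298 to 459 in HFWT, 1.67-fold (two-sided exact permutation test, adjusted over 32 tests, p = 0.0231), and to 155 to 269.7 in NDKO and 258 to 582 in HFKO, 1.77-fold (adjusted exact p = 0.0423). On control diet the sum is carried by Cd5l and Clec4f. On CDAHFD it is carried by Cd5l and Cd68 (means of 96.1 and 88.1 FPKM in HFWT, 118 and 71.8 in HFKO). The genes of the list did not move as one. Clec4f, a Kupffer cell lectin, was at 67.5 FPKM in NDWT and 29.7 in HFWT (means), and Timd4 at 5.19 and 0.367. Cd68 was at 11.1 and 88.1, Trem2 at 0.183 and 19.9, Itgax at 0.430 and 25.1 and Ccr2 at 0.298 and 4.10. The neutrophil list, led by S100a8, was 7.67-fold and 7.77-fold higher, and the stellate cell list, led by Col1a1, 7.37-fold and 7.39-fold (adjusted exact p = 0.0231 in each). T cell (Cd3g) markers were 4.32-fold and 2.66-fold higher, B cell (Cd79a) markers 3.68-fold and 2.37-fold, and cholangiocyte (Sox9) markers 12.8-fold and 7.67-fold (adjusted exact p = 0.0231 in each). Under median of ratios scaling 7 of the 8 lists, instead of 6, passed between the diets in WT livers. In TSP-1 null livers 4 passed, instead of 6. These counts take passes in either direction. That scaling divides CDAHFD libraries by 1.12 to 1.33 and control libraries by 0.786 to 0.868, so each rise above is smaller under it. As deposited, hepatocyte (Alb) and endothelium (Clec4g) sums did not pass in any comparison. The neutrophil marker Ly6g was listed at 0 in all NDWT and HFWT libraries and Mmp8 in all NDKO libraries, and no other marker was at 0 throughout a group. The part of these cells in the members' values was not tested.

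Between the genotypes the members differed little, and Casp1, Casp8, Ripk1 and Ripk3 had the largest log2FC on control diet, all below 0 under each scaling. On control diet 1 of the 10, Casp1, was called (lower) and 0 were called higher, where 3.03% of all genes were called lower and 1.74% higher. Of all calls between genotypes on control diet 36.5% were higher as deposited and 51.4% under median of ratios scaling, and on CDAHFD 33.3% and 58.5%. The median log2FC was -0.15 for the members and -0.07 for all genes. Casp1 was 2.50 ± 0.833 FPKM in NDWT and 1.44 ± 0.409 in NDKO, a log2FC of -0.74 (SE 0.24, limma FDR 0.0443), and the groups overlapped through NDWT replicate 1 at 1.35. This call stands close to its threshold. It was lost under 8 of the 14 other settings, among them both scalings (FDR 0.0754 and 0.102), and when any of 12 single libraries was left out (FDR up to 0.112), while the log2FC stayed between -0.50 and -0.93.

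Ripk3 was the member whose genotypes did not overlap on control diet, at 1.07 to 1.92 FPKM in NDWT and 0.828 to 1.06 in NDKO. Among all genes, 6.69% lay wholly lower in NDKO. Its log2FC of -0.53 did not pass in the fit across genes (SE 0.20, limma FDR 0.0802), whereas the exact permutation test of the single gene did (p = 0.00794, adjusted over 40 tests 0.0198). The 40 tests take in the diet comparisons, whose many small p lower the adjusted values between genotypes. An adjustment within a genotype comparison alone was not made. Ripk1 passed the FDR but not the fold threshold (log2FC -0.30, limma FDR 0.0377), at 3.13 to 3.48 FPKM in NDWT and 2.31 to 3.15 in NDKO. Casp8 did not pass (log2FC -0.37, limma FDR 0.0554), and its NDWT libraries were the most scattered of the 4 groups. Nlrp3, Aim2, Pycard, Casp4, Gsdmd and Mlkl lay within -0.21 to 0.10 on the log2 scale, and their lowest FDR was 0.458.

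On CDAHFD 0 of the 10 members were called between the genotypes by limma, where 0.496% of all genes were, and 2 of them (Casp1 and Casp4) had an unadjusted p under 0.05. Without HFKO replicate 5 the count was again 0. The median log2FC was -0.23 for the members and -0.10 for all genes. Casp1 was again lower under the TSP-1 null label (7.30 ± 1.56 FPKM in HFWT and 4.83 ± 1.15 in HFKO, log2FC -0.59, limma FDR 0.207), and the exact permutation test of this gene alone passed (p = 0.0238, adjusted 0.0454). Casp4 was 2.19 ± 0.223 in HFWT and 1.59 ± 0.502 in HFKO (log2FC -0.48, limma FDR 0.206), and -0.63 without HFKO replicate 5 (FDR 0.0757). Casp8 was the member whose genotypes did not overlap, at 15.7 to 18.1 FPKM in HFWT and 13.2 to 15.3 in HFKO, as for 4.13% of all genes in this direction. Its log2FC was -0.21 (SE 0.13, limma FDR 0.395, exact permutation p = 0.00794, adjusted 0.0198). With median of ratios scaling 0 of the members passed the exact test on CDAHFD. Nlrp3 had the opposite sign (0.20, FDR 0.735), and its ratio to Casp4 was higher in all HFKO libraries (0.737 to 1.18) than in any HFWT library (0.497 to 0.722, exact permutation p = 0.00794, adjusted over 180 tests 0.0265). This pair is 1 of 45 tested after the values were seen, and the other pairs between genotypes are not given here. The 180 tests take in the diet comparisons, whose many small p lower this adjusted value.

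**Figure D4:**
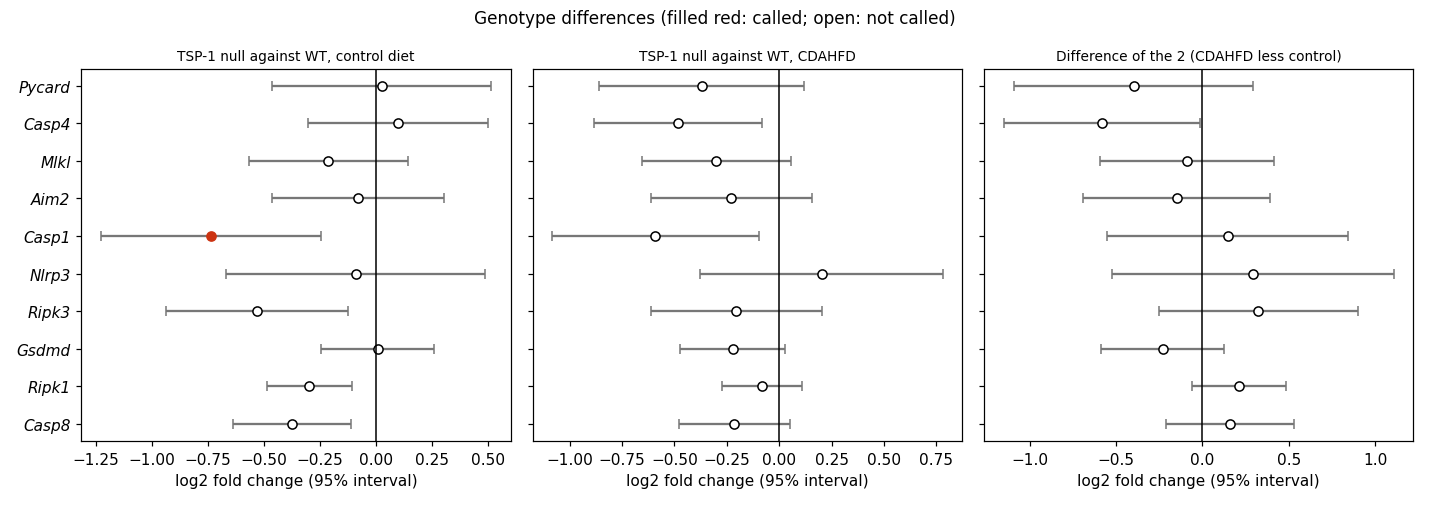
log2 fold change of each gene between the genotypes as labelled, on control diet (left) and CDAHFD (middle), and the difference of these 2 values (right), with 95% intervals. Red points are called and open points are not. Casp1 on control diet (-0.74) is the red point, a call lost under both other scalings, and all intervals on the right but that of Casp4 (-0.58) include 0.

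Whether the diet difference itself depended on the genotype was tested by the interaction term. It was called for 0 of the 10 members, against 0.647% of all genes, and 1 member (Casp4) had an unadjusted p under 0.05. Casp4 had the largest value, -0.58 (95% interval -1.15 to -0.02, limma FDR 0.314), the difference of its diet log2FC of 1.72 in TSP-1 null and 2.30 in WT livers. The widest interval was that of Nlrp3 (-0.52 to 1.11) and the narrowest that of Ripk1 (-0.06 to 0.48). Without HFKO replicate 5 the count was again 0.

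Partner genes outside the 10 were read from 2 lists. The first held 28 inflammasome partners (other sensors, regulators, pore proteins and cytokines), of which 25 passed the filter. On CDAHFD 17 were called higher and 2 lower in WT livers, and 19 and 2 in TSP-1 null livers, with medians of 1.04 and 1.43, where 44.1% and 41.9% of all genes were called higher. Under quantile normalization 10 and 12 of the 25 were called in either direction, where 5076 and 4607 of all 14524 genes tested were. Without HFKO replicate 5 the TSP-1 null counts as deposited were 19 and 1. Pstpip1, an adaptor that binds pyrin, went from 0.197 ± 0.0728 to 3.38 ± 0.780 FPKM in WT (log2FC 3.56, limma FDR 5.63e-11), and Panx1, a channel that releases ATP, from 0.236 ± 0.0650 to 2.40 ± 0.450 (2.89). Pstpip1, Panx1 and Casp12 exceeded 0.5 FPKM in no control diet library, and so they were tested through the CDAHFD livers alone. Casp12, Card9, Naip2 and Il1rn, the interleukin-1 receptor antagonist, followed with log2FC of 2.85, 2.63, 1.89 and 2.06 in WT. In TSP-1 null livers the 6 with the lowest FDR were Casp12 (2.53), Naip2 (1.92), Pstpip1 (2.93), Il1rn (2.08), Panx1 (2.33) and the ATP receptor P2rx7 (1.94). Naip2 shares 32.7% of its 31-base stretches with other genes, mainly other Naip copies, so its value is uncertain. The sensors Nlrp12 and Nlrp6 were the ones that fell. Nlrp12 was at 31.9 ± 5.68 FPKM in NDWT and 11.2 ± 2.72 in HFWT (log2FC -1.52) and at 50.1 ± 15.3 and 13.5 ± 2.02 in TSP-1 null livers (-1.83). Nlrp6 fell by 0.61 and 0.60 on the log2 scale, from 39.8 ± 3.09 FPKM in NDWT and 37.4 ± 2.59 in NDKO. These were higher than any of the 10 members, so on control diet the most abundant sensors of the list were those that were lower on CDAHFD.

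The second list held 32 death receptor and necroptosis partners, 31 of them tested. On CDAHFD 17 were called higher and 0 lower in WT livers, and 15 and 0 in TSP-1 null livers, where 44.1% and 41.9% of all genes were called higher. The medians of 0.62 and 0.54 were close to those of all genes. Without HFKO replicate 5 the TSP-1 null count was 14. Under median of ratios scaling 10 and 8 of the 31 were called in either direction, where 5541 and 5205 of all 14524 genes tested were. Tnfaip3, encoding the ubiquitin editor A20, went from 0.465 ± 0.124 to 4.08 ± 0.792 FPKM in WT (log2FC 2.89, limma FDR 3.96e-10), and its partner Tnip1 from 2.72 ± 0.331 to 14.3 ± 2.35 (2.34). Tnf itself went from 0.254 ± 0.0879 to 2.27 ± 0.616 FPKM in WT (2.74) and from 0.138 ± 0.0510 to 2.11 ± 0.515 in TSP-1 null livers (3.22). Birc3, an inhibitor of apoptosis protein that ubiquitinates RIPK1, had a log2FC of 1.64, the kinase Ikbkb 1.09 and the TNF receptor Tnfrsf1a 0.89 in WT. In TSP-1 null livers Tnfrsf10b, a receptor for TRAIL with 1 to 11 fragments per control library, had a log2FC of 2.59 and, like Tnf, exceeded 0.5 FPKM in no control diet library, beside Tnip1 (2.55), Tnfaip3 (2.92), Tnf (3.22) and Birc3 (1.58).

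Between the genotypes, partners were called on control diet, all of them lower in NDKO. Of the inflammasome partners 4 of 25 were called lower in NDKO and 0 higher, where 3.03% of all genes were called lower and 1.74% higher. Gbp2 and Gbp5, guanylate-binding proteins that open bacterial vacuoles for caspase-11, were lower by a log2FC of -1.05 and -1.25 (limma FDR 0.00701 and 0.00155), and Irgb10, listed as Gm12250 and acting with them, by -0.96 (FDR 0.00486). Gbp5 was at 1.38, 2.86, 1.84, 1.25 and 1.88 FPKM in NDWT and at 0.786, 0.495, 0.637, 0.746 and 0.802 in NDKO, without overlap. Il1b, the cytokine that caspase-1 matures, was at 2.21, 1.38, 2.68, 1.41 and 1.26 FPKM in NDWT and at 0.610, 0.415, 0.785, 1.38 and 0.389 in NDKO (log2FC -1.28, FDR 0.00992), and 1 NDKO library reached into the NDWT range. Of the other list 3 of 31 were called lower and 0 higher, beside the same shares of all genes. They were the death receptor Fas (-0.80), Cflar (-0.61), encoding the caspase-8 inhibitor FLIP, and Bid (-0.59), which caspase-8 cleaves. Fas lay at 11.2 to 15.0 FPKM in NDWT and at 5.38 to 8.31 in NDKO. The call of Fas held under all 14 other settings and without any 1 library. Those of Cflar and Bid were lost with a pseudocount of 1 and under both other scalings, that of Cflar also without NDWT replicate 3 or NDKO replicate 1, and that of Bid also without NDWT replicate 3 or 5 or NDKO replicate 1, 3 or 5. Gbp2, Gbp5 and Il1b kept their calls under every setting, and Gm12250 lost its call with a pseudocount of 1.

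On CDAHFD the genotype call among the partners was Casp12, a close relative of Casp1 and Casp4, at 3.44, 3.10, 3.62, 3.72 and 4.02 FPKM in HFWT and 1.89, 2.40, 2.45, 1.57 and 2.90 in HFKO (log2FC -0.68, SE 0.14, limma FDR 0.0246). The groups were apart, and the call was lost with a pseudocount of 1, with median of ratios scaling, in a fit of the groups compared alone, and without HFWT replicate 3 or 5 or HFKO replicate 1 or 4 (FDR up to 0.0786). In the other list 0 were called on CDAHFD, where 0.496% of all genes were. The interaction was called for 0 genes of either list by limma, against 0.647% of all genes. It came nearest for Fas (0.70, FDR 0.0564), which had a log2FC between diets of -0.57 in WT livers, under the fold threshold, and of 0.13 in TSP-1 null livers. Il1b was called higher on CDAHFD in TSP-1 null livers (1.72) and not in WT (0.51), and the difference between these was not shown (interaction 1.21, FDR 0.184).

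**Figure D5:**
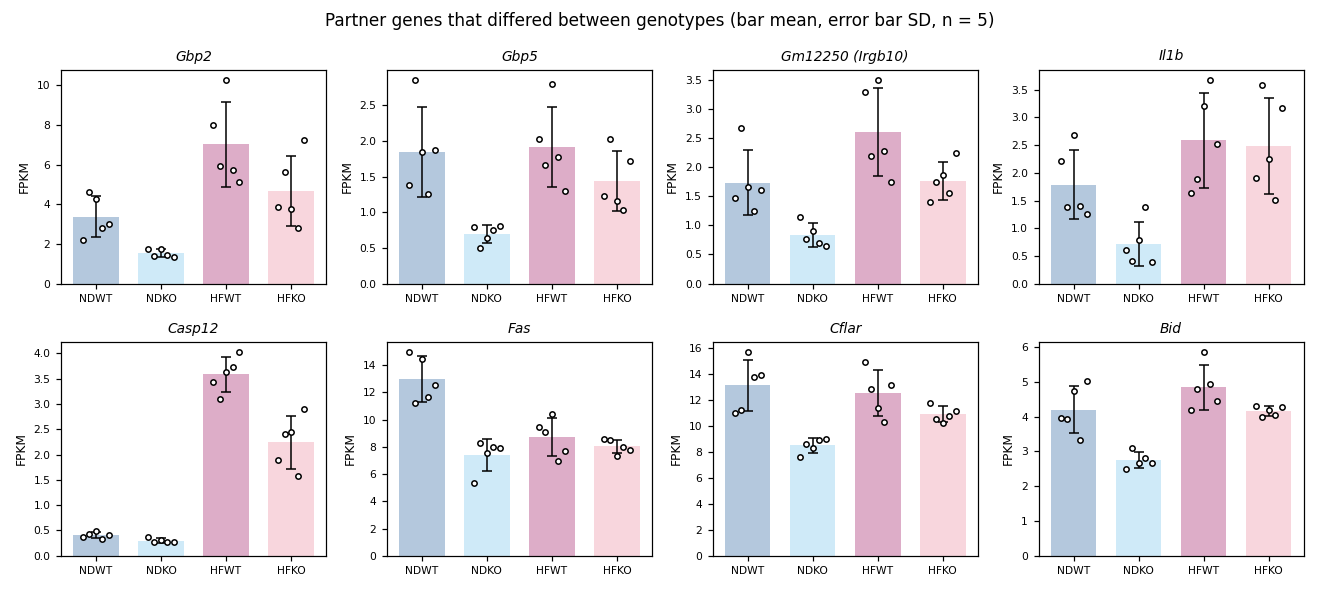
FPKM of the 8 partner genes called between genotypes, in the 4 groups (linear axes from 0). Bars are means, error bars SD over 5 mice and points libraries. Gbp2, Gbp5, Gm12250, Il1b, Fas, Cflar and Bid were called lower in NDKO than in NDWT, Cflar and Bid losing the call under median of ratios scaling and quantile normalization, and Casp12, whose call that scaling also ended, was called lower in HFKO than in HFWT.

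Within groups the members varied together only in part. Deviations of log2 values from the group means were compared over the 20 libraries, which share any scaling of their library, and are given as descriptions. Aim2 and Casp1 were the closest pair (Pearson r = 0.80, Spearman rho 0.83), followed by Casp4 and Gsdmd (r = 0.71, rho 0.74), Aim2 and Mlkl (r = 0.70), Aim2 and Ripk3 (0.70) and Nlrp3 and Mlkl (0.67). Nlrp3 and Pycard, sensor and adaptor, had r = 0.45 (rho 0.46). Ripk1 and Mlkl tended in opposite directions (r = -0.52), less so by rank (rho -0.33). Over all tested genes, Casp1 was closest to Btk (r = 0.85), Nlrp3 to Bin2 (0.85), Aim2 to Cdc42se2 (0.85), Ripk3 to Ctsc (0.83) and Casp4 to Itsn2 (0.82). Casp8 was closest to Whsc1l1 (0.91), Pycard to Gm22478 (0.90), Gsdmd to Pgap2 (0.84), Ripk1 to B230219D22Rik (0.84) and Mlkl to Tbc1d19 (0.81). The Spearman rho of these closest genes ran from 0.66 (Mlkl) to 0.91 (Casp8). Each is the highest r among all tested genes, and how high such a best value runs by chance was not tested.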

How the data were processed

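Liver RNA was sequenced on an Illumina HiSeq instrument, and the authors deposited FPKM to 3 decimals for 38924 genes in 20 libraries, made with QuickRNASeq (STAR 2.5.2, featureCounts and Subread 1.5.1 in the submitters' processing notes). The notes name a human build, whereas the coordinates in the table are those of GRCm38. The tissue is the right medial lobe in the series description and the right lateral lobe in the paper. Fragments per gene were recovered from FPKM, length and library total (at least 99.99% whole within 0.05) and cover counting error only, since no molecular identifiers were used.

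Groups follow the labels. limma 3.58.1 (R 4.3.3, trended eBayes, all 20 libraries in 1 fit) took log2(FPKM + 0.1) of the 14524 genes that exceeded 0.5 FPKM in 5 or more libraries, and was tested on simulated data. Exact permutation tests were two-sided. Other steps used matplotlib 3.10.9, numpy 2.4.6 and pandas 2.3.3 in Python 3.11.15. The members and gene lists were chosen with earlier results of these data known. Named were all members, the called partner genes of lowest FDR (at most 6 per list and diet comparison), every partner called between genotypes, and the gene most like each member; Nlrp12, Nlrp6 and some pairs were added after their values were seen. A gene that this rule names is not reported here. Alternatives were other pseudocounts, filters, scalings and fits, and each library left out.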

Additional observations from a re-analysis of the deposited data

Results flagged for a closer look

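In 2 of the 40 groups of 5 libraries the highest library lay far from the other 4 by Dixon's test at the 95% level, and chance flags about 1 in 20 such groups. Both were HFKO replicate 5. Its Pycard was at 7.02 FPKM, with a gap to the next library of 0.865 of the range of the group, and its Ripk3 was at 3.69 FPKM, with a gap of 0.717. Without this library the diet log2FC in TSP-1 null livers was 2.61 for Pycard and 1.01 for Ripk3, and both were still called by limma.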

How the results depend on the processing

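Over the 50 log2FC of members (10 genes in 5 comparisons) and 1690 recomputed values, 1628 kept their direction and their side of the threshold, 32 lost the call, 3 gained it and 27 changed sign. A value that changed sign was counted only there, whether or not its call also changed. Many log2FC could not move, since other filters, some fits and a library left out of a group not compared act on the FDR alone. Both diet counts of members called in either direction stayed at 6 to 9 under every alternative, and at 7 to 8 with any 1 library left out. In WT livers they include 1 member called lower under median of ratios, beside 6 higher, where 2242 and 3299 of all 14524 genes were. Under quantile normalization 1 was called lower there, beside 5 higher, where 2562 and 2514 of all genes were. The control diet genotype count of 1 became 0 with a pseudocount of 1, with FPKM above 0.5 in at least 1 library, with no filter, with median of ratios scaling, with quantile normalization, in a fit of only the groups compared, in eBayes without trend and with voom on recovered fragments, became 2 without the fold threshold, and was 0 to 1 with a library left out.

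Median of ratios and quantile normalization reversed the diet difference of Ripk1 in WT livers (-0.40 and -0.59) and in TSP-1 null livers (-0.16 and -0.33), that of Casp8 in TSP-1 null livers (-0.44 and -0.30), and the CDAHFD genotype value of Ripk1 (0.014 and 0.048). Quantile normalization also reversed Ripk3 in WT (-0.016). A pseudocount of 1 reversed values near 0, Pycard between genotypes on control diet (-0.0078) and the interaction of Casp1 (-0.0078). These scalings centre all genes near 0 by construction. Leaving out a library reversed values near 0. On control diet between genotypes, Pycard ran from -0.15 to 0.24, Nlrp3 from -0.29 to 0.10, Aim2 from -0.16 to 0.051 and Gsdmd from -0.10 to 0.073. Casp8 between diets in WT ran from -0.16 to 0.029, the interaction of Casp1 from -0.027 to 0.34 and that of Mlkl from -0.26 to 0.018.

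Of the inflammasome partners, quantile normalization left 10 called between diets in WT and 12 in TSP-1 null livers, and the CDAHFD genotype count became 0 with a pseudocount of 1, median of ratios or only the groups compared (0 to 1 with a library left out). Of the death receptor and necroptosis partners, median of ratios left 10 and 8 between diets, quantile normalization 8 and 5, and no fold threshold gave 26 and 25. Of all 14524 genes tested, median of ratios left 5541 and 5205 called between diets, and quantile normalization 5076 and 4607. On control diet between genotypes that list had 1 call with a pseudocount of 1, median of ratios or quantile normalization, 5 without the fold threshold and 1 to 4 with a library left out, and its interaction had 1 call with median of ratios and with voom (0 to 1 with a library left out). Members past the exact test between genotypes went from 2 to 1 on control diet and from 2 to 0 on CDAHFD under median of ratios, and ranged over 1 to 3 and 0 to 4 with a library left out. For marker lists median of ratios gave 1 on control diet, and 0 to 1 passed on CDAHFD with a library left out. The causes were not tested.

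Replicate numbers did not pair the libraries: over 30 pairs with the same number r ran from -0.133 to 0.081, and 6 of 20 libraries correlated best with their own number. With the replicate block the counts of members were 8, 8, 1, 0 and 0, with no call changed. On control diet the sensors rest on few fragments (14 to 57 for Nlrp3), which limits small differences.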
